A study of Mus musculus with 24 samples.

Results

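Retinal endothelial cells without frizzled-4 (Fz4-/-), through which the secreted protein Norrin signals, were measured on Matrigel and on gelatin-coated plates. The comparison holds 6 of 24 arrays, 3 of Fz4-/- cells on Matrigel and 3 of Fz4-/- cells on gelatin, which were chosen by their labels. It covers 18193 genes, each read from its probe set with the highest mean. Adult mice of mixed gender and mixed C57Bl6/129 background gave rise to the lines, and wild type lines treated in the same ways serve as a second comparison. All lines, Fz4-/- and wild type, carried the Immorto-mouse transgene, a temperature-sensitive SV40 large T antigen driven by the H2Kb promoter, which responds to interferon gamma. Cells were propagated at 33 °C with interferon gamma on gelatin, and RNA was taken at 37 °C without it. Cells of the Matrigel groups first spent 24 hours in 1% serum, were then trypsinized, and stayed on Matrigel for 6 hours, again in 1% serum. No such starvation or replating is given for the gelatin groups, so effects of the extract, of low serum, of replating and of time cannot be told apart. The number of lines behind each genotype and whether replicates were separate cultures are not given, so the p-values speak only of the spread among these arrays.

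Matrigel is an extract of basement membrane, rich in laminin and collagen IV, on which endothelial cells stop spreading, round up and join into cords within hours. On gelatin over plastic the same cells spread flat and pull on strong focal adhesions. Spreading, actin tension and serum activate YAP and TAZ, which bind DNA through TEAD factors, and serum response factor (SRF), which follows the pool of unpolymerised actin.

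Values are log2 intensities, and a difference is the mean on Matrigel minus the mean on gelatin, with its standard error (SE, n = 3 per group). A gene is said to have risen or fallen where limma's Benjamini-Hochberg adjusted p over all genes lay below 0.05. Fzd4, the gene named in the genotype, read 5.19, 4.67 and 4.80 in Fz4-/- cells on Matrigel and 5.50, 5.08 and 4.61 in Fz4-/- cells on gelatin, against 8.44 to 9.09 on the 6 wild type arrays. All Fz4-/- arrays therefore lay below all wild type arrays, and Fzd4 did not pass between Matrigel and gelatin (-0.18 ± 0.22, adjusted p = 0.628). The endothelial identity of the label held on both surfaces: the mean level of 28 pan-endothelial markers was 10.28 to 10.44 on Matrigel and 10.07 to 10.09 on gelatin. The mean levels of 7 marker lists of pericytes and smooth muscle, fibroblasts, leukocytes, retinal glia and neurons, pigment epithelium, other epithelium and red cells lay between 3.65 and 5.06 on Matrigel and between 3.60 and 4.97 on gelatin. The median gene read 6.24 to 6.31 on the Matrigel arrays and 6.19 to 6.32 on the gelatin arrays. In RNA of whole cultures, fewer cells in a state and less RNA per cell cannot be told apart.

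In Fz4-/- cells 3592 of 18193 genes passed (19.7%), 1439 higher on Matrigel (7.91%) and 2153 lower (11.8%). Among these, 96 rose and 139 fell at least 2-fold, and the median difference over all genes was -0.05. Counts of list members in Fz4-/- cells are to be read beside the shares of 7.91% and 11.8%. On 39.1% of genes the Matrigel and gelatin arrays did not overlap, and 3561 of the 3592 called genes were among these. The named genes of largest change were picked among them, so a lack of overlap adds no support to a call. The number 1 arrays stood apart in both groups: gene differences between arrays 1 and 2 had a standard deviation of 0.344 on Matrigel and 0.347 on gelatin, against 0.175 and 0.147 between arrays 2 and 3. Without the number 1 array of every group 5498 genes passed (30.2%), and with replicates 2 and 3 averaged into 1 sample 712 passed (3.91%). The count was 2335 without gelatin replicate 3 and 2351 without gelatin replicate 2. With the replicate number as a block within each line it was 5745 (31.6%).

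**Figure D1:**
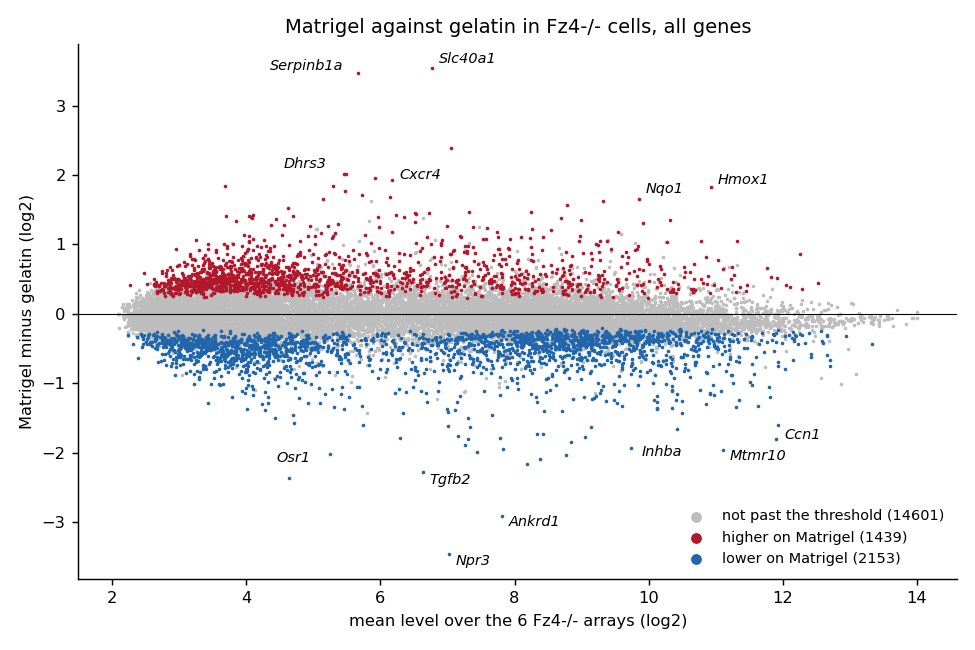
Mean level of each of 18193 genes over the 6 arrays (log2, x axis) against its difference between Fz4-/- cells on Matrigel and on gelatin (log2, y axis). Colours mark 1439 genes that rose, 2153 that fell and 14601 that did not pass, and the named genes reach 3.54 for Slc40a1 and -3.46 for Npr3.

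The greatest rise among called genes was that of Slc40a1, which encodes ferroportin, the exporter of iron from cells. It read 9.90, 7.87 and 7.84 on Matrigel, against 5.43, 4.99 and 4.58 on gelatin, a difference of 3.54 ± 0.54 or 11.6-fold (adjusted p = 0.00125). The groups lay far apart, and Matrigel array 1 was the highest. Serpinb1a, an intracellular inhibitor of neutrophil serine proteases, read 7.11, 7.72 and 7.34 on Matrigel, against 3.31, 4.37 and 4.10 on gelatin (3.46 ± 0.28, adjusted p = 4.3e-05), while its other probe set differed by 0.59. Dhrs3, which reduces retinaldehyde to retinol, read 6.39, 6.68 and 6.32 on Matrigel, against 4.54, 4.40 and 4.39 on gelatin (2.02 ± 0.14, adjusted p = 1.76e-05). The arrays of Dhrs3 lay close together within each group, and all Matrigel arrays were above all gelatin arrays.

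The greatest fall was that of Npr3, the clearance receptor that takes up natriuretic peptides. It read 5.15, 5.17 and 5.56 on Matrigel, against 8.70, 8.85 and 8.72 on gelatin (-3.46 ± 0.27, adjusted p = 3.35e-05). Its gelatin arrays were close together and far above all Matrigel arrays. Rgs2, a brake on G protein signalling, read 7.08, 7.21 and 7.03 on Matrigel, against 9.60, 9.07 and 9.12 on gelatin (-2.15 ± 0.16, adjusted p = 2.29e-05), and 1 of its other probe sets gave -0.10. Osr1, a zinc finger factor of embryonic mesoderm, read 4.12, 4.27 and 4.33 on Matrigel, against 6.36, 6.25 and 6.15 on gelatin (-2.02 ± 0.13, adjusted p = 1.76e-05). F3, which encodes tissue factor, the trigger of coagulation, read 3.25, 3.66 and 3.48 on Matrigel, against 4.44, 6.44 and 6.58 on gelatin (-2.36 ± 0.54, adjusted p = 0.0105). Its Matrigel levels were not far above the low end of the array's range. Gelatin array 1 of F3 lay well under the other gelatin arrays but above every Matrigel array, and the call was lost with replicates 2 and 3 averaged (-2.07, adjusted p = 0.14). The plot of single genes by array shows genes that passed, most of them picked because their groups did not overlap.

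**Figure D2:**
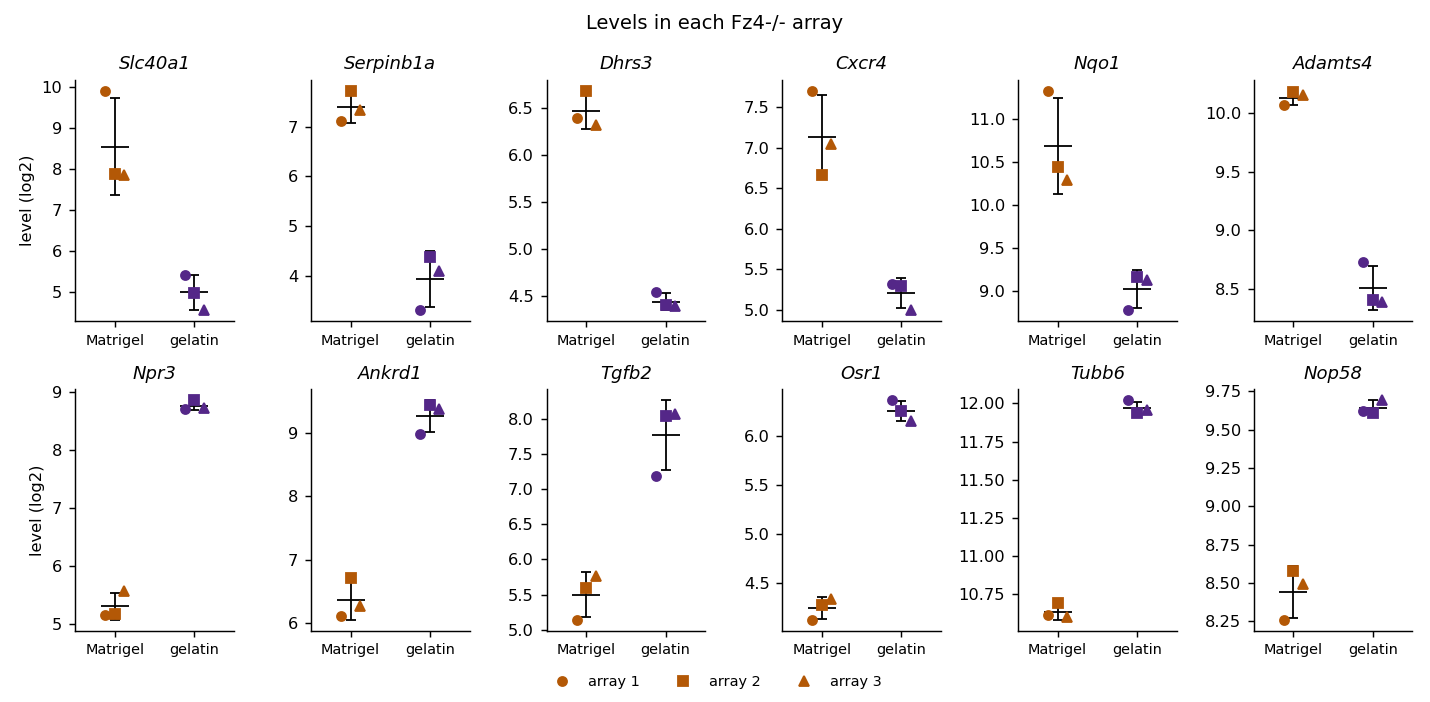
Log2 level of 12 genes on each Fz4-/- array, with Matrigel on the left and gelatin on the right of each panel. Circles, squares and triangles are replicates 1, 2 and 3, and the bar and its error are the mean and SD of the 3 arrays. All panels show genes that passed, most of them picked among genes whose groups do not overlap, so their separation was given by that choice. Slc40a1 lies at 7.84 to 9.90 on Matrigel and at 4.58 to 5.43 on gelatin.

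Genes driven by YAP and TAZ were lower on Matrigel. Of 21 measured, 11 fell, 0 rose and 10 did not pass, and their median difference was -0.79 beside -0.05 for all genes. In wild type cells 10 fell and 0 rose. Ankrd1, a nuclear ankyrin repeat protein and a direct target of YAP, read 6.11, 6.71 and 6.27 on Matrigel, against 8.98, 9.44 and 9.37 on gelatin (-2.90 ± 0.26, adjusted p = 7.76e-05). Amotl2, an angiomotin relative that binds YAP and holds it back, read 9.62, 9.89 and 9.86 on Matrigel, against 11.10, 11.31 and 11.22 on gelatin (-1.42 ± 0.11, adjusted p = 3.35e-05). Ccn1, a secreted matricellular protein, read 11.08, 11.25 and 10.65 on Matrigel, against 12.95, 12.73 and 12.71 on gelatin (-1.80 ± 0.32, adjusted p = 0.00287). All Matrigel arrays of these genes lay below all their gelatin arrays, with a wide gap. Thbs1, which encodes the angiogenesis inhibitor thrombospondin-1, fell by 1.60 ± 0.17, and Ajuba, a LIM protein that restrains the LATS kinases, fell by 1.29 ± 0.17. Ccn2, a relative of Ccn1, read 12.83, 12.33 and 11.96 on Matrigel, against 13.37 to 13.39 on gelatin, and did not pass (-1.0 ± 0.34, adjusted p = 0.0575). With the replicate number as a block Ccn2 passed (adjusted p = 0.0146), and its Matrigel arrays spread far more widely than its gelatin arrays. It also passed without Fz4-/- Matrigel replicate 1 (adjusted p = 0.0419) and without wild type Matrigel replicate 1 or 3 (adjusted p = 0.00951 and 0.0198), and had adjusted p = 0.262 with replicates 2 and 3 averaged.

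The promoters of the YAP and TAZ list were read for the TEAD motif GGAATG, on either strand, in the 250 bases before the RefSeq start (mouse build GRCm38.p6). Of the 21 genes, 13 had a promoter in the table, and 8 of those held the motif. It stood in 12.6% of all 32851 promoters, and 14.4% of 27025 genes had it in at least 1 promoter. Among the 8 genes with the motif, 6 fell and 2 did not pass. Among the 5 without it, 2 fell and 3 did not pass. The promoters of 3 genes that fell are shown because they let the motif be seen in place. Capitals mark the motif, or its reverse complement CATTCC. A match describes the letters and does not show that a TEAD factor binds there.
Ankrd1 (chr19:36119845-36120094, minus strand): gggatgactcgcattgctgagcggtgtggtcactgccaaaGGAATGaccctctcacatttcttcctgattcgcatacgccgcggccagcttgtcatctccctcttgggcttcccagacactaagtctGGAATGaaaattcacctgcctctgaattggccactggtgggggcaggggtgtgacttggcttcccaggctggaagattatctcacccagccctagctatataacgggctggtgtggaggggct
Ccn1 (chr3:145649986-145650235, minus strand): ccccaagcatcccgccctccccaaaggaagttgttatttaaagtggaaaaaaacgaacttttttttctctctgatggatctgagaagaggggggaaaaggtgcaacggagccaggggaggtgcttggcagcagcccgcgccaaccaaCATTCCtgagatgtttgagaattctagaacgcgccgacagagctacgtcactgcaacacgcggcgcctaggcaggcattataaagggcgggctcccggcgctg
Amotl2 (chr9:102717554-102717803, plus strand): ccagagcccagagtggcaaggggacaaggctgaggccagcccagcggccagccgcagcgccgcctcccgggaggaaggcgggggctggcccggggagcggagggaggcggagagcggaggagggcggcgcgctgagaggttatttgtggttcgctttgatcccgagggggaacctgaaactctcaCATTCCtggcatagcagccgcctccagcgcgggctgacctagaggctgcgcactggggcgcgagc

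SRF and actin cytoskeleton genes were lower in the same way, with 13 of 28 down, 0 up, 15 not past and a median of -0.41. The number that fell was 9 with quantile normalization or without Fz4-/- gelatin replicate 2, and 4 with replicates 2 and 3 averaged. In wild type cells 13 fell and 0 rose. Of 16 actins and actin binding proteins 10 fell, and of 4 genes for SRF and its co-activators 0 fell. Fhl2, a LIM protein induced by SRF, read 6.63, 6.64 and 6.51 on Matrigel, against 7.51, 7.95 and 7.87 on gelatin (-1.18 ± 0.12, adjusted p = 0.000112). Cnn2, which encodes calponin-2, read 9.94, 10.60 and 10.62 on Matrigel, against 11.20, 11.73 and 11.72 on gelatin (-1.16 ± 0.23, adjusted p = 0.00549). Number 1 was the lowest Cnn2 array in each of these groups, the groups did not overlap, and the call was lost with replicates 2 and 3 averaged (adjusted p = 0.0844). Tpm1, a tropomyosin that lines actin filaments, fell by 1.02 ± 0.13 (adjusted p = 0.000581). Acta2, smooth muscle actin, fell by 1.80 (adjusted p = 0.000111), but its probe sets free of a cross-hybridization suffix gave -0.22 (adjusted p = 0.216) and -0.18. The CArG box, to which SRF binds, stood in 1.47% of all promoters of that length (1.62% of genes). It stood in 8 of the 24 list genes that had a promoter, of which 4 fell and 4 did not pass, while among the 16 without it 7 fell and 9 did not pass. Both promoters shown carry the box, in capitals, in a gene that fell.
Fhl2 (chr1:43196762-43197011, minus strand): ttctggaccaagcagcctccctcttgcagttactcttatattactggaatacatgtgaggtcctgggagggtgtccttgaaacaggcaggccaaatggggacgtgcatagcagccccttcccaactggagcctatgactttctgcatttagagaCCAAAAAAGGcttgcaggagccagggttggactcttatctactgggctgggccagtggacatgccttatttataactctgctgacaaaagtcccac
Cnn2 (chr10:79988350-79988599, plus strand): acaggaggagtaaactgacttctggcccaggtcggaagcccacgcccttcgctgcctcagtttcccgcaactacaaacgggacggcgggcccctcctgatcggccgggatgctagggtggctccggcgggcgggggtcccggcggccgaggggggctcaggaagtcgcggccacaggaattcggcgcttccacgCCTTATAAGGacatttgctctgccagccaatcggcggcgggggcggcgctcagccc

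Some components of adhesions and microtubules fell too. Zyx, the LIM protein zyxin that collects at focal adhesions and stress fibres under tension, read 9.43, 9.47 and 9.45 on Matrigel, against 10.74, 10.85 and 10.84 on gelatin (-1.36 ± 0.10, adjusted p = 2.85e-05). The adapter gene Bcar1 fell by 1.04 and Fermt2, which encodes the integrin activator kindlin-2, by 0.83 ± 0.09. Of 19 focal adhesion genes 8 fell and 1 rose (median -0.28), but only 5 fell without gelatin replicate 2 or without gelatin replicate 3. Of 9 tubulin genes 7 fell, and 0 rose (median -0.86). Tubb6, a beta-tubulin, read 10.61, 10.69 and 10.60 on Matrigel, against 12.02, 11.94 and 11.96 on gelatin (-1.34 ± 0.09, adjusted p = 1.76e-05). Tubb4b read 10.82, 10.84 and 10.78 on Matrigel, against 11.70, 11.70 and 11.66 on gelatin (-0.88 ± 0.07). For both tubulins the arrays of each group were almost level and the groups stood clear of each other. Other probe sets gave smaller differences, -0.33 for Zyx, -0.19 for Tubb6 and -0.76 to 0.19 for Tubb4b.

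Integrins are the receptors for the basement membrane proteins that Matrigel offers. Of 15 integrin subunits 1 rose, 1 fell and 13 did not pass, beside 19.7% of all genes past the threshold, and with the replicate block 3 rose and 4 fell. The one that fell was Itga4, the alpha chain of a fibronectin receptor, at 9.68, 9.11 and 9.23 on Matrigel against 10.63, 10.21 and 10.23 on gelatin (-1.02 ± 0.15, adjusted p = 0.00119). The one that rose was Itga2 (0.36), a chain of a collagen receptor, and its call was lost without Matrigel replicate 2 (adjusted p = 0.0625), without Matrigel replicate 3 (adjusted p = 0.0519) and with replicates 2 and 3 averaged (adjusted p = 0.178). Of 16 genes for laminins and other basement membrane proteins 0 passed by limma's adjusted p in either direction (median 0.08), 2 were higher at an unadjusted p below 0.05, and 4 rose with the replicate block. The plot of lists sets these groups side by side.

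**Figure D3:**
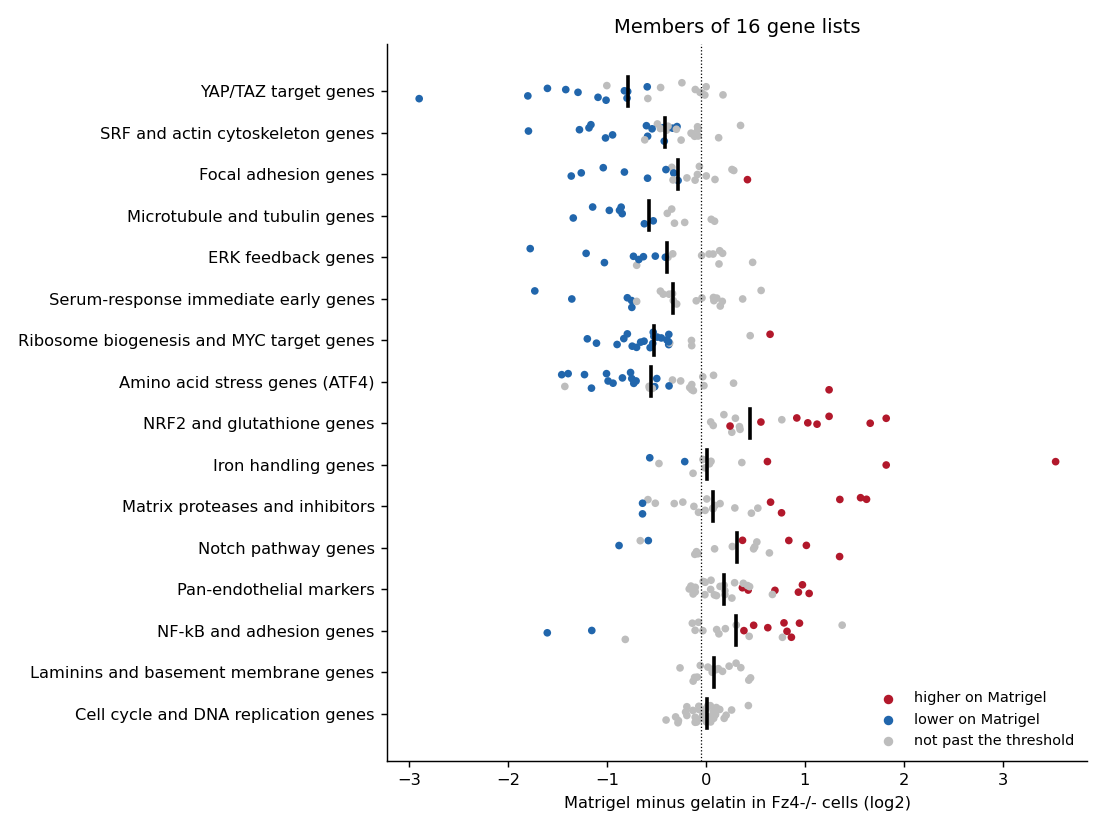
Difference between Fz4-/- cells on Matrigel and on gelatin (log2, x axis) for every measured member of 16 gene lists. Each point is a gene, coloured by whether it rose, fell or did not pass, the black bar is the list's median and the dotted line is the median of all genes. YAP and TAZ targets (median -0.79) and NRF2 genes (0.45) lie on opposite sides of the line.

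Some genes induced by serum were also lower. Of 21 immediate early genes, which serum switches on within minutes, 5 fell and 0 rose (median -0.33). Over all genes 11.8% fell and 7.91% rose. The number of immediate early genes that fell was 3 without Matrigel replicate 3 or without any 1 gelatin replicate. It was 10 with the replicate block. Maff, a small MAF factor, read 7.48, 7.60 and 7.60 on Matrigel, against 9.09, 9.43 and 9.35 on gelatin (-1.73 ± 0.14, adjusted p = 4.63e-05). Fosl2, an AP-1 subunit, fell by 0.75 ± 0.09, and Jun, its partner, read 10.04, 10.09 and 9.77 on Matrigel against 10.80, 10.70 and 10.66 on gelatin. Neither of these AP-1 genes overlapped between the groups. Of 18 genes that ERK signalling induces and that feed back on it, 8 fell and 0 rose (median -0.40), and 10 fell in wild type cells. Dusp14, a dual-specificity phosphatase, read 8.62, 8.57 and 8.54 on Matrigel, against 9.82, 9.81 and 9.74 on gelatin (-1.21 ± 0.13). Its arrays were nearly level within each group, and the groups lay far apart. Dusp5, a nuclear ERK phosphatase, fell by 1.78 ± 0.21 (adjusted p = 0.000352). Phlda1 fell by 1.03 and Spry4, a Sprouty inhibitor of receptor kinases, by 0.68.

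Of 33 growth factors and receptors 4 rose and 5 fell (median -0.07), beside 7.91% and 11.8% of all genes. Most of these falls were in the EGF family, where 4 of 6 genes fell and 1 rose. Of 10 IGF genes 2 rose and 0 fell, and of 6 PDGF and 7 FGF genes 0 passed. Ereg, which encodes epiregulin, read 3.17, 3.52 and 3.28 on Matrigel, not far above the low end of the array's range, against 4.64, 4.95 and 4.47 on gelatin (-1.37 ± 0.14). Hbegf, the heparin-binding ligand, read 10.47, 11.04 and 10.68 on Matrigel, against 12.06, 11.94 and 11.90 on gelatin (-1.24 ± 0.21). Nrg1, which encodes neuregulin-1, fell by 1.19 ± 0.17. These ligands differed widely in level, and none of them overlapped between Matrigel and gelatin. Of 5 TGF-beta and activin ligands 2 fell, 1 rose and 2 did not pass, with a median of 0.2. Among those that fell, Tgfb2 read 5.14, 5.59 and 5.76 on Matrigel, against 7.19, 8.04 and 8.08 on gelatin (-2.27 ± 0.27, adjusted p = 0.000333). Inhba, the subunit of activin A, read 8.58, 8.88 and 8.88 on Matrigel, against 10.73, 10.68 and 10.72 on gelatin (-1.93 ± 0.12, adjusted p = 1.76e-05), while its other probe set gave -0.18. Fst, which encodes the activin antagonist follistatin, fell by 2.02 (adjusted p = 0.0178). That call was lost without Matrigel replicate 1 (-1.67, adjusted p = 0.0613), gelatin replicate 2 (-1.73, adjusted p = 0.0697) or gelatin replicate 3 (-1.75, adjusted p = 0.0691), and its alternatives ranged from 0.000111 to 0.161.

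Genes for making ribosomes were lower on Matrigel. Of 20 biogenesis genes 17 fell and 0 rose (median -0.54). With the 4 transcription factors of the list, 19 of 24 fell and 1 rose, and with replicates 2 and 3 averaged 6 fell. Nop58, a core protein of the small nucleolar particles that modify ribosomal RNA, read 8.26, 8.58 and 8.49 on Matrigel, against 9.62, 9.61 and 9.69 on gelatin (-1.20 ± 0.12, adjusted p = 0.000117). Nop56, its partner, fell by 0.90, and Srm, spermidine synthase and a MYC target, fell by 1.11 ± 0.11. The groups of these genes did not overlap. Of 38 genes of the cell cycle and DNA replication 0 passed by limma's adjusted p, with a median of 0.01, and 1 was higher at an unadjusted p below 0.05. Their mean level was 7.54, 8.76 and 8.76 on Matrigel and 7.45, 8.84 and 8.81 on gelatin, so the number 1 arrays were lower on both surfaces, and 6 fell without the number 1 arrays. Of 26 interferon response genes 0 passed as well (1 at an unadjusted p below 0.05), while 3 rose and 5 fell without the number 1 arrays and 2 rose and 1 fell with the replicate block, at mean levels of 8.80 to 9.54 on Matrigel and 8.70 to 9.60 on gelatin.

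Genes that ATF4 induces when amino acids are short were lower. Of 30 measured 15 fell, 1 rose and 14 did not pass (median -0.56), and 9 fell and 1 rose in wild type cells. Chac1, which degrades glutathione, read 7.68, 7.83 and 7.73 on Matrigel, against 9.75, 8.82 and 8.85 on gelatin (-1.39 ± 0.24, adjusted p = 0.00269). Slc7a1, a carrier of basic amino acids, read 9.76, 9.84 and 9.95 on Matrigel, against 11.26, 10.88 and 10.88 on gelatin (-1.16 ± 0.11). Gelatin array 1 was the highest for both, and all gelatin arrays lay above all Matrigel arrays. Slc7a5, the light chain of the leucine transporter LAT1, fell by 1.46 ± 0.25, a call lost with replicates 2 and 3 averaged (adjusted p = 0.0533). The one that rose was Slc7a11, the cystine importer that NRF2 induces too, at 7.19, 6.27 and 6.35 on Matrigel against 5.46, 5.25 and 5.38 on gelatin (1.24 ± 0.27), a call that averaging also ended (adjusted p = 0.0795). The amino acid response element TGATGNAA, on either strand, stood in 3.45% of all promoters (3.91% of genes). Of the 25 list genes with a promoter 7 held it, of which 4 fell, 1 rose and 2 did not pass, and of the 18 without it 7 fell and 11 did not pass. The promoter of Chac1 is shown with that of Asns, asparagine synthetase, which was chosen after its values were seen and fell by 0.99 (adjusted p = 0.00213). Capitals mark the element on the strand read or on the other.
Chac1 (chr2:119350992-119351241, plus strand): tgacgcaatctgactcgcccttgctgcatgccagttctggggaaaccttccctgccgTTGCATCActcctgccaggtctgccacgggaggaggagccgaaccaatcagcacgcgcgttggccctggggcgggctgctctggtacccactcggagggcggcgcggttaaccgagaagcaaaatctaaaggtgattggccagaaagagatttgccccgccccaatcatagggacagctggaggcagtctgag
Asns (chr6:7693210-7693459, minus strand): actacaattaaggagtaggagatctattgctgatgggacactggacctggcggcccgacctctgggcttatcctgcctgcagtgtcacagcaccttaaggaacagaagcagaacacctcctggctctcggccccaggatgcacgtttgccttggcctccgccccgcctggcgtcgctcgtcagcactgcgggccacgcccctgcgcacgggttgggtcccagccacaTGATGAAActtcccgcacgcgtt

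NRF2 target genes, which protect against oxidants, were higher on Matrigel. Of 16 genes in the list 8 rose, 0 fell and 8 did not pass, all 16 differences were above 0, and the median was 0.45. In wild type cells 8 rose and 0 fell. Nqo1, a quinone reductase, read 11.33, 10.44 and 10.29 on Matrigel, against 8.78, 9.17 and 9.13 on gelatin (1.66 ± 0.29, adjusted p = 0.00263). Hmox1, heme oxygenase, which frees iron from heme, read 12.57, 11.52 and 11.45 on Matrigel, against 10.64, 9.73 and 9.69 on gelatin (1.82 ± 0.32, adjusted p = 0.00271). Array 1 was the highest on Matrigel for both genes, and Matrigel and gelatin did not overlap. Srxn1, which repairs peroxiredoxins, rose by 1.12 and Gclm, a subunit of the enzyme that starts glutathione synthesis, by 1.03. With replicates 2 and 3 averaged Nqo1 kept its call, while Hmox1 (adjusted p = 0.0637), Srxn1 (adjusted p = 0.0675) and Gclm (adjusted p = 0.0993) lost theirs. Among iron genes, Hamp, the hormone hepcidin that degrades ferroportin, read 4.33, 4.16 and 4.02 on Matrigel, against 3.58, 3.46 and 3.60 on gelatin (0.62), low levels on both surfaces. Fasn, fatty acid synthase, read 9.38, 9.23 and 9.47 on Matrigel, against 10.03, 10.22 and 10.26 on gelatin (-0.81 ± 0.10). Bcl6, a repressor that FOXO factors induce when growth factors are withdrawn, read 8.14, 7.92 and 7.97 on Matrigel, against 6.41, 6.88 and 6.97 on gelatin (1.25 ± 0.14). Bcl6 was thus higher on every Matrigel array. Of 25 genes in the FOXO list 6 rose and 3 fell (median 0.17), beside 7.91% and 11.8% of all genes, and of its 22 targets 6 rose and 2 fell. With replicates 2 and 3 averaged 2 of the 25 rose and 2 fell. In wild type cells 7 rose and 4 fell.

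**Figure D4:**
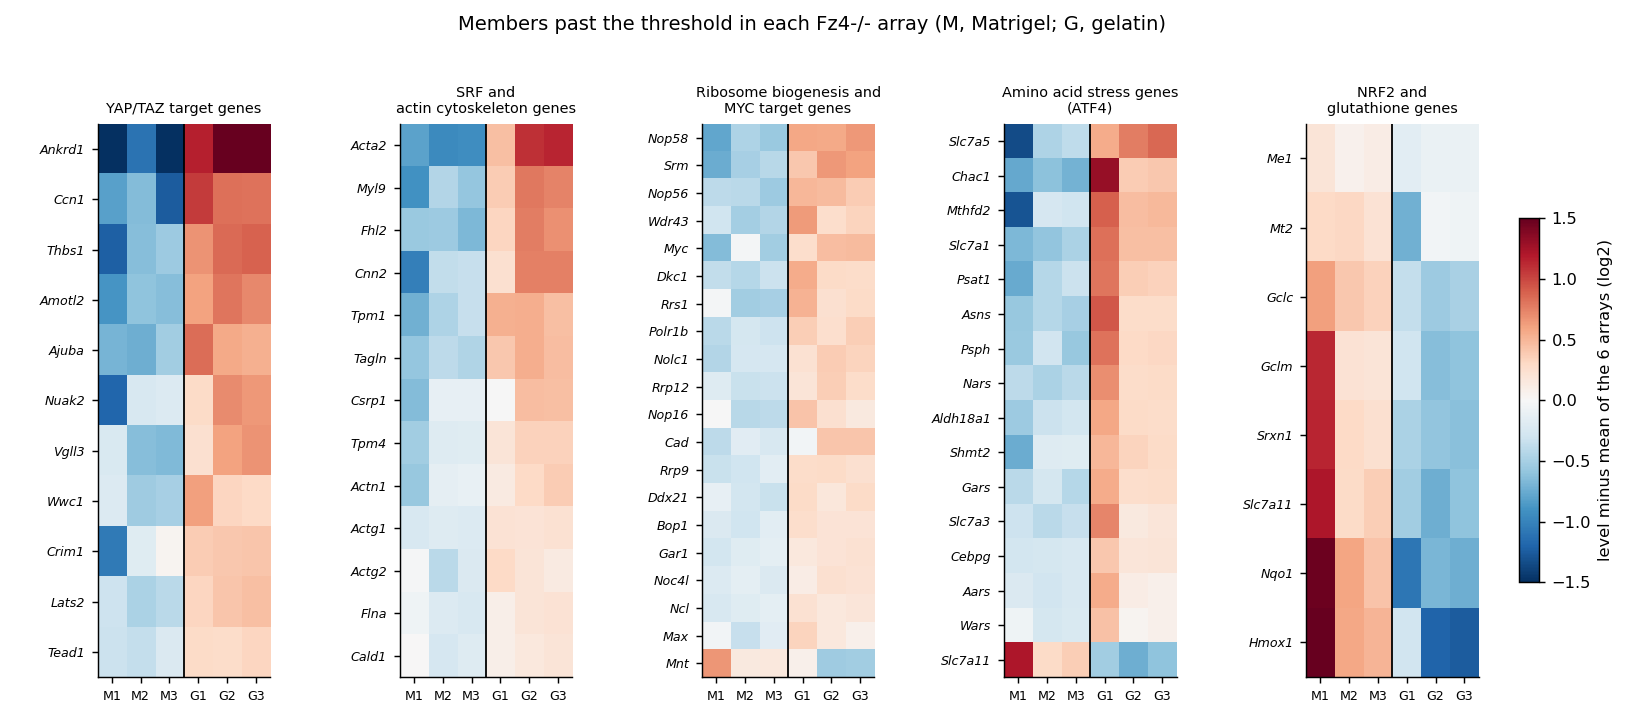
Members of 5 gene lists that passed, with columns for Fz4-/- arrays 1 to 3 on Matrigel and 1 to 3 on gelatin. Colour is the log2 level minus the gene's mean over the 6 arrays, cut at 1.5 in each direction. Members that did not pass are left out, so a contrast between the surfaces was given by the choice of members. Among those shown, nearly all YAP and TAZ, SRF, ribosome and ATF4 members are lower on Matrigel, and the NRF2 members are higher.

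Among genes of vessel growth, the chemokine receptor Cxcr4, carried by sprouting endothelium, and its ligand Cxcl12 moved in opposite directions. Cxcr4 read 7.70, 6.66 and 7.04 on Matrigel, against 5.32, 5.30 and 5.0 on gelatin (1.93 ± 0.23, adjusted p = 0.000345). Cxcl12 read 9.04, 10.01 and 9.73 on Matrigel, against 11.11, 11.33 and 11.30 on gelatin (-1.66 ± 0.19, adjusted p = 0.000238). Neither gene overlapped between the surfaces. Tek, the angiopoietin receptor Tie2, read 10.57, 10.26 and 10.16 on Matrigel, against 9.19, 9.41 and 9.47 on gelatin (0.98 ± 0.12). Its ligand Angpt2 read 11.87, 11.02 and 11.19 on Matrigel, against 12.51, 11.92 and 11.92 on gelatin. Angpt2 did not pass (adjusted p = 0.103), but did with the replicate block (-0.76, adjusted p = 0.000207) and without Matrigel replicate 1 (-1.01, adjusted p = 0.0478). With replicates 2 and 3 averaged it had adjusted p = 0.343.

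Vegfd, a VEGF ligand known for lymphatic growth, read 5.63, 5.08 and 5.51 on Matrigel, against 4.12, 3.76 and 4.12 on gelatin (1.41 ± 0.18). Vegfc, the ligand most like it, read 5.75, 7.02 and 6.71 on Matrigel, against 4.76, 5.52 and 5.20 on gelatin, and did not pass (1.34 ± 0.53, adjusted p = 0.101), but did with the block (adjusted p = 0.00183) and without wild type Matrigel replicate 1 (adjusted p = 0.0369). With replicates 2 and 3 averaged it had adjusted p = 0.349. Each Matrigel array of Vegfc lay above every gelatin array, but the gap was narrow. Kdr, the main VEGF receptor, did not pass (0.18, adjusted p = 0.481). Plxnd1, a semaphorin receptor that limits sprouting, read 11.45, 11.24 and 11.22 on Matrigel, against 10.22, 10.26 and 10.29 on gelatin (1.05 ± 0.10). The guidance ligand Efna1 rose by 1.11 ± 0.13 and Ntn4, a laminin-related netrin of basement membranes, fell by 1.23 ± 0.09. Dll1, a Notch ligand, read 9.32, 9.85 and 9.82 on Matrigel, against 8.10, 8.42 and 8.42 on gelatin (1.35 ± 0.20, adjusted p = 0.00105). Hey2, a Notch target of arteries, read 2.58, 2.30 and 2.60 on Matrigel, against 3.37, 3.52 and 3.22 on gelatin (-0.88 ± 0.13), near the low end of the array's range.

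Of 22 matrix proteases and inhibitors 5 rose and 2 fell (median 0.07), beside 7.91% and 11.8% of all genes. In wild type cells 1 rose and 3 fell. Of the ADAMTS family in Fz4-/- cells 4 of 5 measured rose, with a median of 1.35. Of 8 matrix metalloproteinases 1 rose and 1 fell, of 5 inhibitors 1 fell, and 4 genes of the plasminogen system did not pass. Adamts4, which cuts the proteoglycans aggrecan and versican, read 10.07, 10.18 and 10.15 on Matrigel, against 8.73, 8.41 and 8.39 on gelatin (1.62 ± 0.18, adjusted p = 0.000239). Adamts1 read 11.43, 10.86 and 10.70 on Matrigel, against 9.31, 9.78 and 9.85 on gelatin (1.35 ± 0.24, adjusted p = 0.00317). Every Matrigel array of both proteases lay above every gelatin array. Mmp14, the membrane collagenase of sprouting cells, read 10.09, 10.22 and 10.25 on Matrigel, against 9.46, 9.52 and 9.62 on gelatin (0.65 ± 0.09, adjusted p = 0.000944). Of its other probe sets 1 gave 0.41 and 1 gave 0.09. In wild type cells Adamts4 did not pass (0.42, adjusted p = 0.142).

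Of 28 pan-endothelial markers 6 rose and 0 fell (median 0.19), beside 7.91% and 11.8% of all genes. The number that rose was 12 with the replicate block and 11 with quantile normalization. It was 5 with median centring, 4 without Fz4-/- gelatin replicate 3 and 2 with replicates 2 and 3 averaged. Clec14a, a surface lectin of endothelium, read 10.31, 10.31 and 10.25 on Matrigel, against 9.04, 9.50 and 9.53 on gelatin (0.93 ± 0.12). Pecam1 (0.19, adjusted p = 0.223) and Cdh5, which encodes VE-cadherin (0.19, adjusted p = 0.163), did not pass. Cldn5, the main tight junction protein of the blood-retina barrier, read 10.84, 9.56 and 9.25 on Matrigel, against 10.02, 8.46 and 8.45 on gelatin. Each Matrigel array of Cldn5 was above the gelatin array of the same number, though the labels do not pair them. Array 1 was so much higher on both surfaces that the groups overlapped (0.90 ± 0.53, adjusted p = 0.254). The adjusted p was 0.000805 with the replicate block and 0.515 with replicates 2 and 3 averaged.

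Of 22 genes for vasoactive peptides and nitric oxide 5 rose and 4 fell, with 3 rises without gelatin replicate 3. Over all genes 7.91% rose and 11.8% fell. Ednrb, an endothelin receptor, read 9.38, 7.79 and 7.59 on Matrigel, against 4.87, 6.25 and 6.47 on gelatin (2.39 ± 0.50, adjusted p = 0.00698). Edn1, the ligand endothelin-1, read 10.78, 11.40 and 10.74 on Matrigel, against 12.47, 12.18 and 12.23 on gelatin (-1.32 ± 0.30, adjusted p = 0.0111). Receptor and ligand thus moved apart with no overlap of arrays, and both calls were lost with replicates 2 and 3 averaged (adjusted p = 0.0614 and 0.061). Selp, which encodes P-selectin, the first catch for rolling leukocytes, read 8.19, 8.48 and 8.46 on Matrigel, against 7.41, 7.33 and 7.55 on gelatin (0.95 ± 0.15, adjusted p = 0.00178). Of 21 NF-kB and adhesion genes 7 rose and 2 fell, beside 7.91% and 11.8% of all genes. In wild type cells 1 rose and 3 fell. The number that rose in Fz4-/- cells was 4 without Matrigel replicate 2, gelatin replicate 2 or gelatin replicate 3. It was 1 with replicates 2 and 3 averaged.

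Some factors of embryonic mesenchyme and of Wnt signalling were lower on Matrigel. Of 8 T-box genes 3 fell and 0 rose, beside 11.8% and 7.91% of all genes. Tbx18, a factor of mural and epicardial cells, read 6.46, 6.16 and 6.29 on Matrigel, against 7.67, 7.74 and 7.71 on gelatin (-1.41 ± 0.11, adjusted p = 2.85e-05). Meox2, a homeobox factor that restrains endothelial growth, read 2.40, 2.26 and 2.37 on Matrigel, against 2.95, 3.13 and 3.03 on gelatin, close to the floor of the measured range. Markers of pericytes and smooth muscle, cells in which Tbx18 is also active, had a mean level of 4.36 to 4.46 on Matrigel and 4.60 to 4.70 on gelatin, with 2 of 11 down, and their part in the Tbx18 values was not tested. Of 19 targets of Wnt and beta-catenin 5 fell, 0 rose and 14 did not pass, beside 11.8% of all genes that fell. The median of the 19 was -0.08, beside -0.05 for all genes, and 7 of them had differences above 0. The number of targets that fell was 2 with replicates 2 and 3 averaged, and 7 in wild type cells. Lef1, both partner and target of beta-catenin, read 3.29, 3.56 and 3.31 on Matrigel, against 4.51, 4.54 and 4.45 on gelatin (-1.11 ± 0.09, adjusted p = 4.34e-05). Its Matrigel levels were not far above the low end of the array's range, and its other probe set gave 0.08. Axin2, the most general target of the pathway, did not pass (0.04, adjusted p = 0.851).

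The wild type lines went through the same change of culture, and their arrays are separate from those of Fz4-/- cells. In wild type cells 1221 genes rose (6.71%) and 2135 fell (11.7%). Of the 1439 rises in Fz4-/- cells 808 were also rises in wild type, which is 56.2% of the Fz4-/- list and 66.2% of the wild type list. Of the 2153 falls in Fz4-/- cells 1397 were shared, 64.9% of the Fz4-/- list and 65.4% of the wild type list. Of the 3592 genes called in Fz4-/- cells 3512 had the same sign in wild type. The share of same signs over all genes was not counted. Calls in both lines used the same variance estimate for each gene, so their overlap is not independent support.

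**Figure D5:**
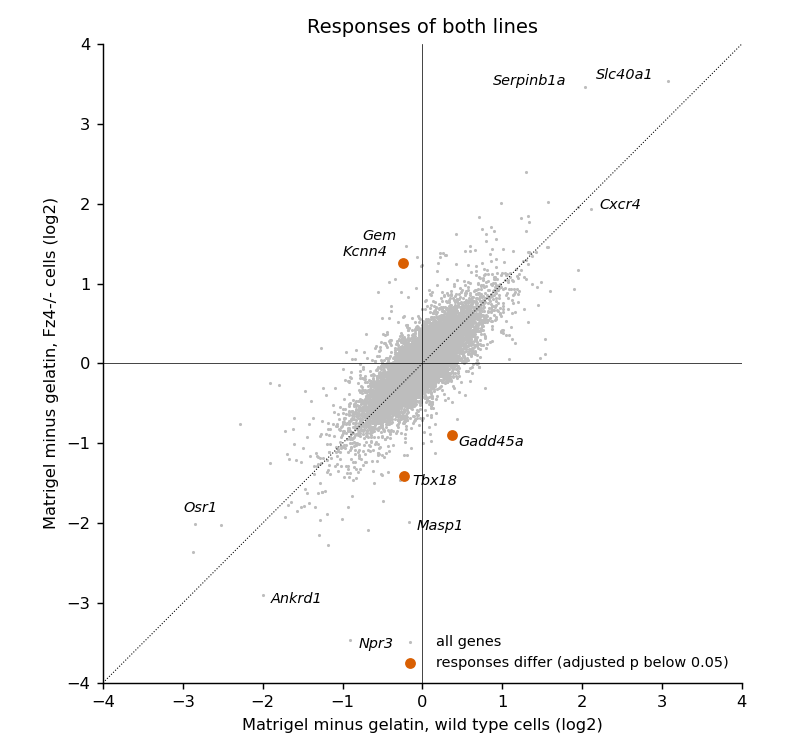
Response to Matrigel in wild type cells (log2, x axis) against the response in Fz4-/- cells (log2, y axis) for 18193 genes. Orange points are the 3 genes whose responses differed by limma's test, Kcnn4, Gadd45a and Tbx18, and they lie off the diagonal on which equal responses would fall.

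A test of the difference itself, the response in Fz4-/- cells minus that in wild type, passed for 3 genes (0.0165%). An unadjusted p below 0.05 was found for 830 genes, a share under the 0.05 that would be reached if no response differed. With the replicate number as a block 8 genes passed, and 28 with the block within each line. Without Fz4-/- Matrigel replicate 1 or wild type gelatin replicate 3 the count was 5, and without the number 1 arrays it was 61. Kcnn4, a calcium-activated potassium channel, read 7.55, 7.73 and 7.57 in Fz4-/- cells on Matrigel and 6.49, 6.22 and 6.36 in Fz4-/- cells on gelatin. In wild type cells Kcnn4 read 5.64, 5.39 and 5.66 on Matrigel and 5.75, 5.81 and 5.86 on gelatin. It was higher on Matrigel in Fz4-/- cells and slightly lower in wild type, and its responses differed by 1.5 ± 0.14 (adjusted p = 0.00458).

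Gadd45a, a growth arrest gene induced by stress, read 6.71, 6.67 and 6.90 in Fz4-/- cells on Matrigel and 7.74, 7.61 and 7.61 in Fz4-/- cells on gelatin. In wild type cells it read 7.99, 8.01 and 8.19 on Matrigel and 7.61, 7.79 and 7.69 on gelatin. The gelatin arrays of the genotypes overlapped, and the Matrigel arrays lay on opposite sides of them. The responses differed by -1.26 ± 0.13 (adjusted p = 0.00702). Tbx18 was not far above the low end of the range in wild type cells, at 3.58, 3.44 and 3.41 on Matrigel and 3.65, 3.55 and 3.90 on gelatin. Its responses differed by -1.18 ± 0.15 (adjusted p = 0.0359), a call lost without any 1 of 10 of the 12 arrays, at adjusted p between 0.08 and 0.147. It held without Fz4-/- Matrigel replicate 1 or wild type gelatin replicate 3. With replicates 2 and 3 averaged no gene passed, and 340 had an unadjusted p below 0.05, again a share of all genes under 0.05. Npr3 changed by -3.46 in Fz4-/- cells and by -0.90 in wild type without passing this test (difference -2.56, adjusted p = 0.105). Gem, a small GTPase, changed by 1.47 in Fz4-/- cells and by -0.20 in wild type, and did not pass either (difference 1.67, adjusted p = 0.108).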

How the data were processed

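Total RNA was extracted with Trizol and RNeasy columns and labelled with biotin for Affymetrix mouse arrays, per the labels' protocols. The deposited values are log2 intensities that the authors computed with RMA, per the submitters' processing notes, and its version is not given in the sources used here. Arrays carry no read depth, so the 3 arrays per group limit the precision.

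Of 45101 probe sets 64 controls were left out. In the platform's annotation 34945 had 1 symbol, 932 several and 9160 none, and only the first were used. RefSeq held 34741 of them by gene ID. A gene was read from whichever of its probe sets had the highest mean, and 9010 of 18193 genes had several. Promoter sequences are RefSeq's, on GRCm38.p6.

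R 4.3.3 ran limma 3.58.1 and data.table (1.17.8), with a mean for each group over the 12 single-culture arrays, with 8 residual degrees of freedom, a prior of 3.55 and Benjamini-Hochberg adjustment over all genes. The wild type groups share this variance estimate. With 3 arrays against 3, an exact permutation test of 1 gene cannot go below p = 0.1. The procedure was tested on simulated data. Noise in the simulation was independent between arrays, so it does not cover deviations that equally numbered arrays share. The 12 co-culture arrays were used only in the alternative with all 24 arrays. Python 3.11.15, pandas 2.3.3, numpy 2.4.6, scipy 1.17.1 and matplotlib 3.10.9 made tables and plots.

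The main fit has no pair term. A fit with the replicate number as a block was run beside it, because the deviations of equally numbered arrays from their group means correlated over genes at 0.66, 0.44 and 0.40. Arrays 2 and 3 correlated across groups at 0.46 and 0.44, so those numbers are not told apart.

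The 60 gene lists (974 genes measured) and the comparison itself were chosen with earlier results of these data known. Named genes are Fzd4, the 20 largest rises and falls whose arrays did not overlap, up to 5 called and 3 other members of each list, the genes that differed between genotypes, and a few endothelial and Wnt genes.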

Additional observations from a re-analysis of the deposited data

Results flagged for a closer look

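Kcnn4, Gadd45a and Tbx18 are listed because their response to Matrigel in Fz4-/- cells differed from that in wild type cells by limma's test of the difference. The response of Kcnn4 was 1.5 ± 0.14 (SE, n = 3 per group) higher in Fz4-/- cells (adjusted p = 0.00458), with 1.26 in Fz4-/- cells and -0.24 in wild type. Gadd45a differed by -1.26 ± 0.13 (adjusted p = 0.00702), with -0.89 in Fz4-/- cells and 0.37 in wild type. Tbx18 differed by -1.18 ± 0.15 (adjusted p = 0.0359), with -1.41 in Fz4-/- cells and -0.23 in wild type. All 3 calls were lost with replicates 2 and 3 averaged, at adjusted p = 0.647 for Kcnn4 and Gadd45a and 0.89 for Tbx18, and Tbx18 also lost its call with median centring (adjusted p = 0.0883). With 3 arrays per group no array was tested as an outlier.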

How the results depend on the processing

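The count of called genes in Fz4-/- cells was 3592, with 1439 higher and 2153 lower on Matrigel. With only genes above the median level it was 1650 (425 higher, 1225 lower), with a 2-fold minimum 235 (96 and 139), and with the replicate block within line 5745 (2325 and 3420). Leaving out number 1 of every group gave 5498 (2098 and 3400), and averaging replicates 2 and 3 gave 712 (274 and 438). Leaving out each array in turn gave 2335 to 3782 in all, 897 to 1522 higher and 1416 to 2260 lower. Quantile normalization gave 1659 higher and 1721 lower, so the share of higher genes depends on the scaling. In wild type 3356 genes passed, with 1235 above the median level, 5388 with the block within line, 5088 without number 1, 574 with replicates averaged and 2137 to 3714 leaving out single arrays, of which wild type Matrigel replicate 2 gave 2137. The 3 genes that differed between genotypes became 5 with the mean of probe sets, 16 with all 24 arrays, 8 with the replicate block, 28 with it within line, 61 without number 1, 0 with replicates averaged (340 at an unadjusted p below 0.05), and 2 to 5 leaving out single arrays. Of 104 gene results checked, the mean of probe sets turned Axin2 to -0.10, and Fzd4 ranged from -0.40 to 0.04 leaving out single arrays, turning without Fz4-/- gelatin replicate 1. The replicate block changed 6 calls, all of which became past the threshold (Ccn2, Vegfc, Angpt2 and Cldn5 above, Apln and Sox18), and no other call. Averaging ended 18. The causes of these changes were not tested.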

Other observations

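Hspd1, the mitochondrial chaperonin, read 10.67, 10.89 and 10.92 on Matrigel, against 11.48, 11.56 and 11.61 on gelatin (-0.73 ± 0.10). Dbp, an output factor of the circadian clock, read 7.24, 7.29 and 7.25 on Matrigel, against 6.11, 6.31 and 6.36 on gelatin (1.0), a call lost with replicates 2 and 3 averaged (adjusted p = 0.0891).

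Of 21 cholesterol synthesis genes 2 fell (median -0.40), and 14 fell without the number 1 arrays. Leaving out single arrays gave 0 to 11 falls, with 11 when Fz4-/- gelatin replicate 1 and 5 when wild type gelatin replicate 1 was absent. It was 0 in the absence of Fz4-/- Matrigel replicate 2 or Fz4-/- gelatin replicate 2 or 3, and 1 in that of Fz4-/- Matrigel replicate 1 or 3 or wild type Matrigel replicate 2 or 3. Their mean level was 7.68, 7.78 and 7.85 on Matrigel and 7.71, 8.40 and 8.39 on gelatin, so gelatin array 1 lay at the level of the Matrigel arrays. With the genes divided by level into 4 sets of equal size, 172 rose and 706 fell in the set of the highest levels, and 410 rose and 422 fell in that of the lowest.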
